A study of Mus musculus with 5 samples.

Results

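The cells described here were the fibroblasts of mouse mammary tumors, 66 of the 25751 cells that passed limits on unique molecular identifiers (UMIs, each tagging 1 captured RNA molecule) and mitochondrial content, out of 30340 deposited cells. They were chosen by their transcripts. A cell needed at least 1000 UMIs and no more than the upper limit that the study set against multiplets, at most 20% of them mitochondrial, and at least 10 UMIs of Col1a1, Col1a2, Col3a1 and Dcn together, with at least 3 of these 4 genes detected. It also had to lack Ptprc (the pan-leukocyte CD45) and Pecam1 (endothelial CD31) and to hold at most 3 UMIs of the luminal keratins Krt8 and Krt18. The working name of this population also included mural-like cells, the pericytes and smooth muscle cells that wrap vessels, but the defining mural genes Rgs5, Higd1b, Mcam, Myh11 and Des had no UMI in any of the 66 cells. All of these but Mcam were also rare or absent in the whole series. For want of these transcripts the population is called fibroblasts below.

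Fibroblasts build the collagenous matrix between epithelium and vessels. They secrete fibrillar collagens, whose chains are hydroxylated and folded in the endoplasmic reticulum, trimmed outside the cell and cross-linked by lysyl oxidases, and small leucine-rich proteoglycans such as decorin that bind the fibrils. In mammary tumors they are known for remodeling this matrix and for releasing growth factors, chemokines and complement proteins. Across mouse tissues, Pi16 and Dpp4 are commonly used to mark fibroblasts of the adventitia, the sleeve around larger vessels, and contractile myofibroblasts are marked by Acta2 and Tagln.

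All mice carried the MMTV-PyMT transgene (strain FVB/N-Tg(MMTV-PyVT)634Mul/J), in which the MMTV promoter, active in the mammary epithelium, expresses the polyoma virus oncogene. From 7 weeks of age the mice received either the isotype control IgG2a (clone C1.18.4) or B20-4.1.1, an antibody against VEGF, at 5 mg/kg intraperitoneally and 2 times a week for 6 weeks. There were 6 isotype tumors in 2 pools and 9 B20-4.1.1 tumors in 3 pools, each pool being 3 tumors that carried different multiplexing oligonucleotides and were sequenced as 1 droplet library of sorted DAPI-negative (viable) cells. No pool mixed both treatments, so effects of pool and of treatment cannot be told apart.

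In the 66 cells the 4 rule genes together held between 10 and 1635 UMIs, with a median of 162.5. Col1a1, Col1a2, Col3a1 and Dcn were all detected in 61 cells and exactly 3 of them in 5. The cells just inside the threshold held 10, 10, 13, 15 and 15 UMIs, and those just outside, which passed the exclusions, held 9, 9, 8, 6 and 6, and 2 cells had at least 10 UMIs but fewer than 3 of the genes. The exclusions removed 10 cells that met the collagen criterion: 7 held Ptprc, 4 exceeded the keratin limit and 1 held Pecam1, with some cells meeting more than 1 exclusion.

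Depth differed between the groups. The 16 isotype fibroblasts had a median of 2497.5 UMIs and the 50 B20-4.1.1 fibroblasts a median of 9346.5, within a range of 1048 to 24847 over all 66. Isotype tumor 2 stood apart. Its 7 fibroblasts summed to 10891 UMIs, none reached 2500 UMIs, and a list of 10 epithelial markers held 98.2 of every 10000 UMIs in them, against 1.10 to 8.42 in the fibroblasts of the other 11 tumors that had any. The part of epithelial RNA in the values of this tumor was not tested. No fibroblast barcode recurred in another library of the series, and the oligonucleotides of the assigned tumor were the highest set in all 66 cells. Below, a level is the number of UMIs of a gene per 10000 UMIs summed over the cells named.

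Fibroblasts were rare in both groups. Isotype tumors 1 to 6 gave 0, 7, 3, 4, 2 and 0 fibroblasts among 2501, 3287, 2799, 2117, 1460 and 2634 kept cells. B20-4.1.1 tumors 1 to 9 gave 22, 0, 2, 3, 7, 1, 6, 5 and 4 among 1319, 1300, 1825, 752, 873, 1247, 1288, 917 and 1432. B20-4.1.1 tumor 1 alone held 33.3% of all fibroblasts, and 3 tumors, 2 isotype and 1 B20-4.1.1, held none.

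The fibroblast share of kept cells was 0.108% ± 0.0914 (SD, n = 6) in isotype tumors and 0.483% ± 0.512 (SD, n = 9) in B20-4.1.1 tumors. Isotype tumors ranged from 0% to 0.213% with a median of 0.122%. B20-4.1.1 tumors ranged from 0% to 1.67% with a median of 0.399%, so the groups overlapped. Of the 9, 7 exceeded the isotype mean, with tumor 3 only just above it at 0.110%. Isotype tumors 2, 4 and 5 exceeded it too, at 0.213%, 0.189% and 0.137%. The difference of 0.376 percentage points did not pass the test (exact two-sided permutation test over the 15 tumors, p = 0.0733). Over pools the shares were 0.116% and 0.0966% in isotype and 0.540%, 0.383% and 0.412% in B20-4.1.1. The pools did not overlap, at an exact permutation p = 0.1 that is the lowest 2 pools against 3 allow.

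**Figure D1:**
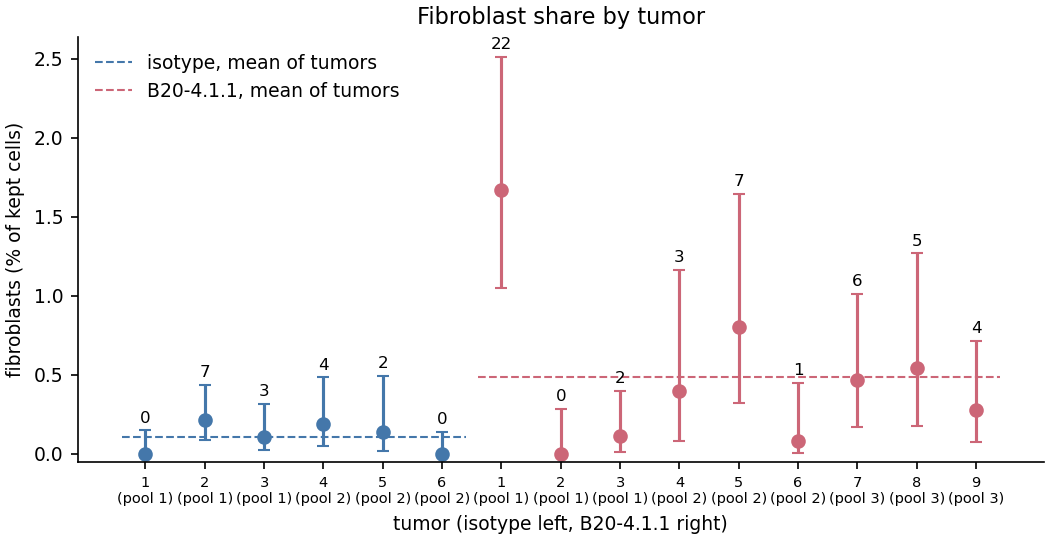
Fibroblast share of kept cells (%, y axis) in each of the 15 tumors (x axis, with pool), isotype in blue and B20-4.1.1 in red. Points are tumors, bars are exact 95% Clopper-Pearson intervals that cover counting error only, numbers above them are fibroblast counts, and dashed lines are group means (0.108% and 0.483%). B20-4.1.1 tumor 1, at 1.67% with an interval of 1.05% to 2.51%, lies above every other tumor's point.

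The size of the difference rested in part on B20-4.1.1 tumor 1. Without it the difference was 0.227 points (exact permutation p = 0.0723). The denominator also moved the call: among cells without Ptprc, which leaves out most leukocytes, the means were 0.143% and 0.774%, a difference of 0.631 points (exact permutation p = 0.0356). T cells, gated on Cd3d, Cd3e and Cd3g, made up 64.4%, 71.5% and 71.4% of kept cells in B20-4.1.1 tumors 3, 4 and 6 and between 3.76% and 23.8% in the other tumors. Fewer fibroblasts in the tumor and fewer released as single cells cannot be told apart in these data.

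The fibroblast label was borne out by genes that the rule did not use. Of a list of 12 fibroblast lineage genes, 11 had a UMI in at least 25% of the 66 cells and 6 in at least 75%. Dpt (dermatopontin, a matrix protein that binds decorin) was detected in 95.5% of cells, Cd34 in 92.4%, Pi16 in 90.9%, Lum (lumican, a fibril-binding proteoglycan) in 87.9%, the mesenchymal transcription factor Prrx1 in 81.8% and the PDGF receptor Pdgfra in 77.3%. Pdpn (podoplanin) followed at 68.2%, Twist1 at 63.6% and Fap at 60.6%. Isotype pool 1 gave 10 of the 16 isotype fibroblasts, and Dpt, Pi16, Lum and Pdgfra were detected less often in it. Without that pool they were found in 100%, 96.4%, 100% and 83.9% of 56 cells. The part of depth in this was not tested. All 12 genes had a higher level in fibroblasts than in the other kept cells: Dpt was at 17.1 against 0.00976 and Pdgfra at 4.96 against 0.0171. With every cell thinned to 1000 UMIs, Dpt was found in 74.2% of fibroblasts and in 0.1% of gated T cells, and Pdgfra in 37.9% and 0%.

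Thy1 was detected in 39.4% of fibroblasts and the calcium-binding S100a4 in 28.8%. Dpp4, a surface peptidase chosen here after its values were seen, was detected in 86.4%. Pi16 varied between tumors, from 3.67 to 24.7 over the 4 isotype tumors with fibroblasts and from 5.75 to 28.5 over the 8 B20-4.1.1 tumors, with overlapping groups.

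The mural label was not clearly borne out. Of 14 mural genes, 5 had no UMI in any fibroblast, which allows a share of up to 4.55% of cells with a UMI. A higher level in fibroblasts than in the other kept cells was seen for 8 of the 14, and the list summed to 3.04 against 0.316. Notch3 and Cspg4 (NG2) were found in 1 cell each, the smooth muscle genes Acta2 in 4 and Tagln in 1, and Vtn in 4. Pdgfrb, a PDGF receptor that fibroblasts also express, was found in 25 cells (37.9%), and the potassium channel subunits Abcc9 and Kcnj8 in 19 and 17. Rgs5 was rare in the whole series, with a UMI in 16 of the 25751 kept cells. Myh11 was found in 10 kept cells, Des in 8 and Higd1b in 0, so their absence from fibroblasts carries little weight. Vtn and Ndufa4l2 were found in 6 and 9 kept cells, of which 4 and 3 were fibroblasts. Abcc9 and Kcnj8 were found in 222 and 242 kept cells, most of them not fibroblasts. Notch3 was found in 2381 kept cells and Mcam in 1222. Among the 10 cells that met the collagen criterion but were excluded, 0 held Rgs5.

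Of 12 myofibroblast-associated genes, 6 were found in at least 25% of cells and 0 in at least 75%. Detected most were the secreted Thbs2 (71.2%), the actin-binding Tpm1 (62.1%), Cthrc1 (42.4%), the matricellular Postn (periostin, 40.9%) and the collagen-binding integrin Itga11 (33.3%), whereas Myl9 was found in 19.7%, Acta2 in 6.06%, Tpm2 in 4.55% and Tagln in 1.52%.

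**Figure D2:**
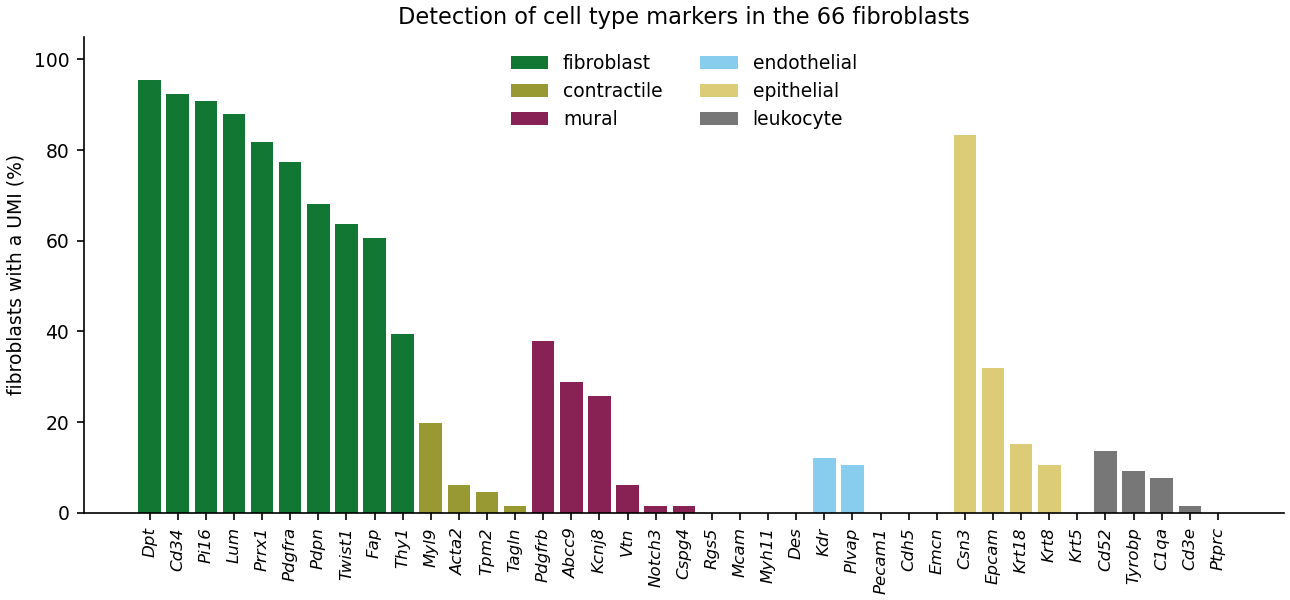
Share of the 66 fibroblasts with at least 1 UMI (%, y axis) of markers of each cell type (x axis; bars start at 0). Fibroblast genes reach 39.4% to 95.5%, the mural genes Rgs5, Mcam, Myh11 and Des are at 0, and of the epithelial genes the milk protein transcript Csn3 stands at 83.3%.

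Transcripts of other cell types were present at low levels. Of 10 endothelial markers, 8 were at 0 in all fibroblasts, including Cdh5, Emcn and Cldn5 (Pecam1 by the rule), and only Kdr (8 cells) and Plvap (7 cells) were seen. Of 8 adipocyte markers, 5 were at 0, among them Adipoq and Plin1. The remaining 3, Fabp4, Pparg and Car3, were found in 4, 2 and 1 fibroblasts. The endothelial list summed to 0.434 per 10000 in fibroblasts and 0.178 in the other kept cells and the adipocyte list to 0.362 and 0.0283, both higher in fibroblasts. Leukocyte markers summed to 0.706 and 26.9. Csn3 was found in 83.3% of fibroblasts at a level of 4.72, against 146 in the other kept cells. In cells thinned to 1000 UMIs its share was 43.9% in fibroblasts and 40.2% in gated T cells (median depths before thinning 8072.5 and 3130 UMIs). The part of background RNA in these values was not tested. Epcam, thinned likewise, was found in 13.6% of fibroblasts and 7.7% of T cells.

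Osteopontin (Spp1), the secreted integrin and CD44 ligand at the center of the study, was compared in the same way. The part of background RNA in its counts was not tested. Spp1 was found in 44 of 66 fibroblasts. Its level was 3.80, against 82.4 in the other kept cells, and after thinning its share was 30.3% in fibroblasts and 31.7% in T cells. In isotype tumor 2, the shallow tumor with the epithelial transcripts, Spp1 stood at 110, against 0 to 3.51 in the fibroblasts of all other tumors. Among genes for osteopontin receptors, the integrin subunits Itgb1 and Itgb5 were found in 86.4% and 53% of fibroblasts, Itgav in 36.4%, Itga5 in 28.8% and Itgb3 in 25.8%, and Cd44 in 31.8%. Itga4 was not seen.

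Collagens other than the rule genes were broadly detected. Of 16 listed, 11 were found in at least 25% of fibroblasts. Col14a1, a fibril-associated collagen, was found in 95.5%. The fibril-nucleating Col5a1 and Col5a2 were found in 89.4% and 86.4%, the microfibrillar Col6a1, Col6a3 and Col6a2 in 86.4%, 84.8% and 74.2%, and the basement membrane chains Col4a1 and Col4a2 in 74.2% and 43.9%. Col11a1 was found in 3 cells and Col10a1 in none. The 2 exceptions to a higher level in fibroblasts than in the other kept cells were Col11a1 (0.127 against 1.28) and Col10a1.

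Of 19 genes for collagen processing, 15 were found in at least 25% of fibroblasts, and all 19 had a higher level there than in the other kept cells. The collagen chaperone Serpinh1 (HSP47) was found in 95.5%, the procollagen proteinase enhancer Pcolce in 80.3%, the propeptidases Adamts2 and Bmp1 in 66.7% and 62.1%, and the lysyl oxidases Loxl1, Loxl2 and Lox in 81.8%, 65.2% and 36.4%. P4ha1, a catalytic subunit of prolyl hydroxylase, was found in 59.1%, and the lysyl hydroxylase Plod2 in 43.9%. Lox was at 5.50 in isotype and 1.24 in B20-4.1.1 fibroblasts, with isotype tumors between 0 and 10.3 and B20-4.1.1 tumors between 0.329 and 2.30, so the groups overlapped.

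The proteoglycan list included neighbors in the genome. Lum lies next to Dcn on chromosome 10 of GRCm38 (Dcn at 97479609 to 97518143 and Lum at 97565128 to 97572703), with no protein-coding gene in the 47.0 kb between them. Ogn (osteoglycin, 92.4% of fibroblasts, level 26.3), Aspn (asporin, 81.8%, level 7.66) and Omd (osteomodulin, 24.2%, level 0.453) lie in a row on chromosome 13. Vcan (versican) was found in 74.2%, Prelp in 65.2%, Hspg2 (perlecan) in 60.6% and Bgn (biglycan) in 51.5%. Fmod, which shares a region of chromosome 1 with Prelp, was found in 1 cell. All 10 proteoglycan genes had a higher level in fibroblasts than in the other kept cells.

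Among 20 matrix glycoproteins, Sparc, a collagen-binding protein, was found in 98.5% of fibroblasts and fibronectin (Fn1) in 97%. The elastic fiber genes Fbn1 and Mfap5 were each found in 93.9%, Fbln2 in 83.3%, Mfap2 in 65.2% and Eln (elastin) in 63.6%. The basement membrane linker Nid1 was found in 90.9%. Cthrc1 and Postn varied between tumors: Postn was at 0, 0, 19.0 and 17.2 in isotype tumors 2, 3, 4 and 5 and ranged from 0 to 29.3 in B20-4.1.1 tumors with a median of 9.30. Tnc was found in 3 cells.

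For matrix turnover, Timp2, an inhibitor of matrix metalloproteinases, was found in 95.5% of fibroblasts, Mmp2 (gelatinase A) in 87.9%, the collagenolytic Ctsk in 83.3%, the versican-cleaving Adamts5 in 77.3%, and Mmp14 and Timp3 in 75.8% and 71.2%. Mmp3 was found in 30.3%, Mmp9 in 1 cell and Mmp13 in none.

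Secreted immune mediators were prominent. Of 15 inflammatory-fibroblast-associated genes, 10 were found in at least 25% of fibroblasts. Clec3b (tetranectin) was found in 95.5%, complement C3 in 92.4%, Ly6c1 in 86.4%, the eosinophil chemokine Ccl11 in 81.8%, the alarmin Il33 in 68.2% and Cxcl12 in 59.1%. Il6 had no UMI in any fibroblast, Lif was found in 1 cell and Cxcl1 in 8. Complement genes chosen after their values were seen followed C3: the C1 inhibitor Serping1 was found in 93.9%, C4b in 84.8%, and the C1 proteases C1s1 and C1ra in 78.8% and 75.8%. Antigen presentation genes were low: Cd74 was at 0.217 in fibroblasts and 9.32 in the other kept cells, and 0 of 6 genes of that list were found in at least 25% of fibroblasts.

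Of 16 angiogenic factors, 8 were found in at least 25% of fibroblasts. Serpinf1 (PEDF, an inhibitor of angiogenesis) was found in 87.9%, Fgf2 in 50%, the VEGF co-receptor Nrp1 in 43.9%, Vegfd (a ligand of lymphatic VEGFR3) in 39.4% and Fgf7 in 34.8%. Vegfa, the target of B20-4.1.1, was found in 28.8%, at a level of 0.702 in isotype and 0.814 in B20-4.1.1 fibroblasts. Vegfd was at 0.760 in fibroblasts and 0.000721 in the other kept cells. Its levels were 0.918, 0.900, 1.12 and 0 in isotype tumors 2 to 5 and 0.175 to 1.38 in B20-4.1.1 tumors, so the groups overlapped.

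In the PDGF and TGF-beta list, 12 of 21 genes were found in at least 25% of fibroblasts and Pdgfa, Ltbp2 and Inhba in none. Among the receptors, Tgfbr2 was found in 87.9% of fibroblasts, Tgfbr3 in 69.7%, and Ltbp4 and Ltbp1, which hold latent TGF-beta in the matrix, in 68.2% and 63.6%, whereas Ltbp2, of the same family, had no UMI. The ligands Tgfb2, Pdgfc and Pdgfd were found in 30.3%, 27.3% and 25.8%, and Tgfb1 in 7.58%. Of 25 hypoxia-response genes in the count, 10 had a higher level in fibroblasts than in the other kept cells, among them P4ha1 (1.68 against 0.348) and Adm (0.851 against 0.0695), whereas Ldha (3.75 against 10.7) and Slc2a1 (0.0724 against 0.415) did not. Cycling genes were scarce: Mki67 was found in 2 fibroblasts and Top2a in 1, and 0 of 12 cell cycle genes had a higher level than in the other kept cells.

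The 25 genes with the largest ratio of their level in fibroblasts to that in all other kept cells were taken from the 3831 genes found in at least 25% of fibroblasts, with the rule genes left out of the ranking. They were Wnt2, Pi15, Mfap4, Sfrp4, Tnxb, Fndc1, Osr2, Islr2, Cadm3, Efemp1, Serping1, Mfap2, Dpt, Ebf2, Ddr2, Spon2, Olfml1, Lgi2, Penk, Abca8a, Clec3b, Cd248, C1qtnf2, C1qtnf7 and the uncharacterized D630033O11Rik. Tnxb (tenascin X) was found in 87.9% of fibroblasts and in 25 other kept cells of the series, Fndc1 in 92.4% and 35, Efemp1 (fibulin-3) in 90.9% and 30, and Cd248 (endosialin) in 84.8% and 19. Ddr2, a receptor for fibrillar collagen, was found in 71.2% and 23, the secreted Wnt inhibitor Sfrp4 in 69.7% and 19, and the transcription factor Ebf2 in 53% and 9.

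Fibroblasts differed among themselves, and Bgn and Igfbp7 were detected together. Of 66 cells, 33 held both, 25 neither, 7 Igfbp7 alone and 1 Bgn alone. In cells with both, the sum of the 2 genes ran from 2 to 86 UMIs with a median of 24. This split and the genes given for it were chosen after the values were seen, and it is described with no test. Depth moved with it: the median was 10223 UMIs in cells with both and 3121 in cells with neither, and after thinning to 1000 UMIs 14 cells held both and 37 neither. Among the 43 fibroblasts with at least 5000 UMIs, 29 held both and 8, from 4 tumors, neither, at medians of 11034 and 8666 UMIs. The levels in the next 2 paragraphs are from these deep cells.

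Cells with both held more of the fibrillar collagens and of several other matrix transcripts. Col1a1 was at 45.1 in them and 17.5 in cells with neither, and Col3a1 at 169 and 54.1, whereas Dcn was at 66.4 and 79.4. Sparc was at 57.7 and 21.6, Lum at 15.2 and 3.98, Postn at 11.2 and 0.853, Sfrp4 at 7.87 and 1.56, and Cxcl12 at 5.42 and 0.853. Cilp and the microfibril protein Mfap4 were found in 16 and 15 of the 29 cells with both and in 0 of the 8 with neither.

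Cells with neither held more Pi16 and Dpp4, named above as adventitial markers. Pi16 was at 27.7 in them and 11.6 in cells with both, Dpp4 at 9.38 and 4.88, the guidance factor Sema3c at 11.8 and 4.66, the complement regulator Cd55 at 9.95 and 4.74, Igfbp6 at 21.3 and 14.1, and Sbsn at 8.10 and 2.07. Not every fibroblast gene followed the split: Dpt was at 18.8 and 18.4 and Ccl11 at 7.25 and 6.99, whereas Pdgfra was at 2.84 and 5.51.

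**Figure D3:**
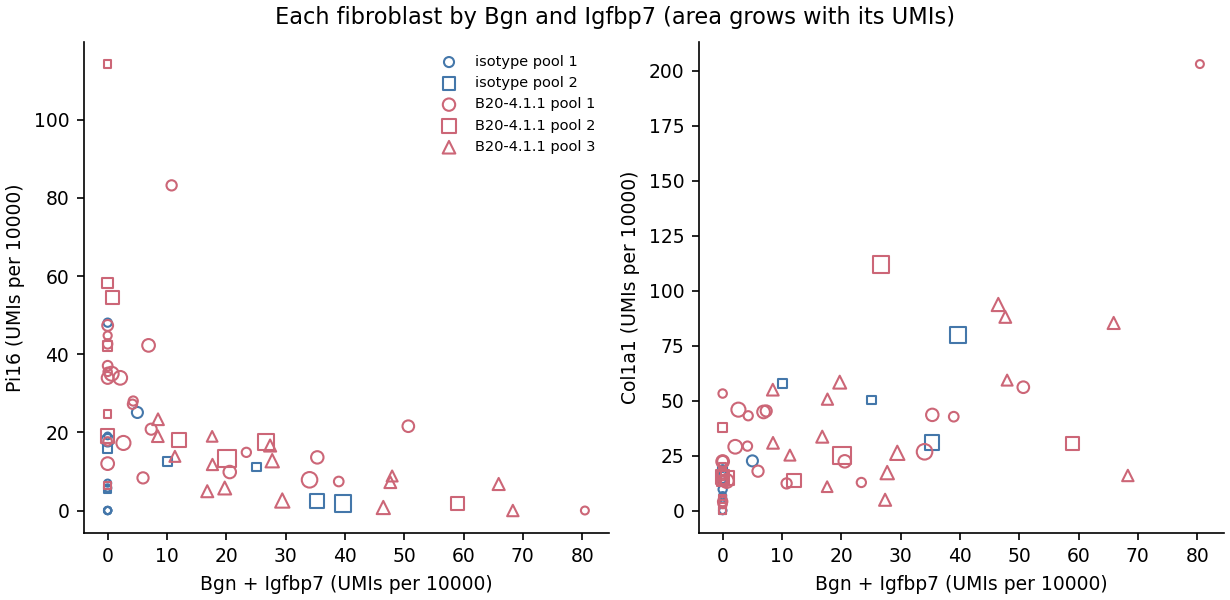
Each of the 66 fibroblasts by its summed Bgn and Igfbp7 level (x axis, UMIs per 10000) against its Pi16 level (left) and Col1a1 level (right), colored by treatment with a symbol per pool and an area that grows with the cell's UMIs. Cells with high Pi16 lie mostly at the low end of the x axis, and all 15 cells of B20-4.1.1 pool 3 (triangles) lie above 0 on it.

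**Figure D4:**
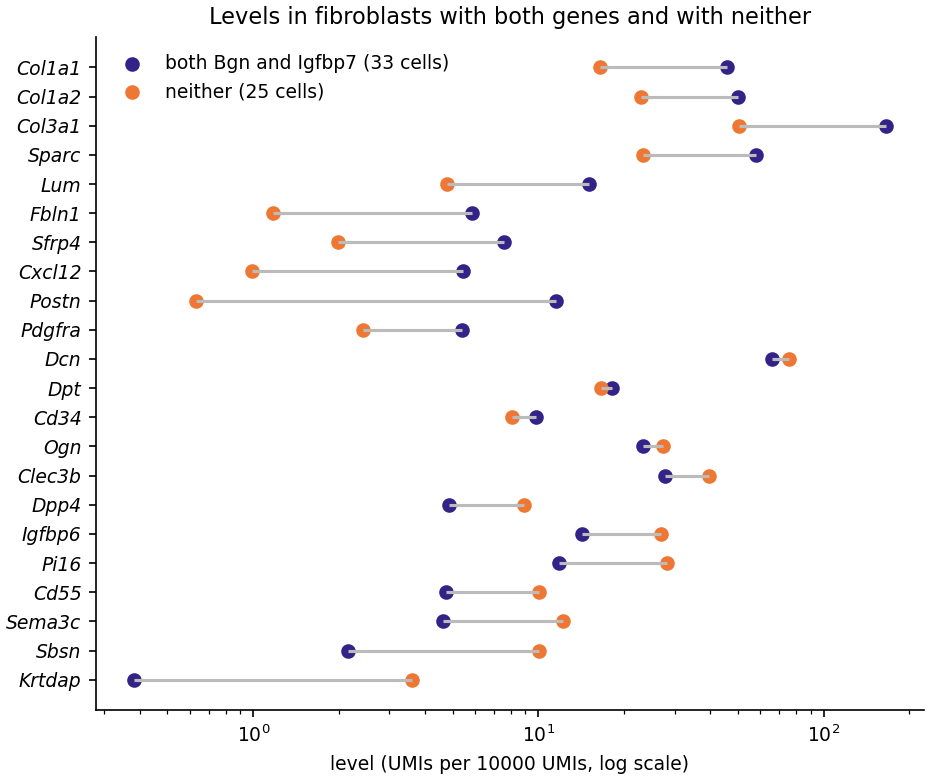
Levels (UMIs per 10000 UMIs, log scale, x axis) of 22 genes, pooled over the 33 fibroblasts with both Bgn and Igfbp7 (blue) and the 25 with neither (orange) at any depth. Col1a1 (45.8 against 16.5) and Postn (11.5 against 0.630) are higher with both, Pi16 (11.8 against 28.3) and Sema3c (4.62 against 12.2) are higher with neither, and Dpt and Cd34 lie close together.

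Some of these differences were also seen inside a single tumor. In B20-4.1.1 tumor 1, with cells of any depth, 9 of 22 fibroblasts held both genes and 7 neither. Col1a1 was at 42.2 in the former and 16.4 in the latter, Postn at 5.72 and 0.438, Pi16 at 17.5 and 31.3, and Sema3c at 3.93 and 12.9. Lum differed less there than over all tumors, at 8.97 and 7.01.

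The balance of the split differed between pools. Both genes were found in all 15 fibroblasts of B20-4.1.1 pool 3, in 14 of 35 in B20-4.1.1 pools 1 and 2, and in 4 of 16 isotype fibroblasts, of which 11 held neither. All 7 cells of the shallow isotype tumor 2 held neither. Outside B20-4.1.1 pool 3, 18 of 51 fibroblasts held both, so the share in B20-4.1.1 fibroblasts (29 of 50) rested in part on 1 pool.

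By the rule used for mural-like cells, 11 fibroblasts had UMIs of at least 2 of 8 mural genes, 16 had exactly 1 and 39 had 0. All 11 had the same pair, Abcc9 and Kcnj8, which encode the regulatory and pore subunits of a vascular ATP-sensitive potassium channel and lie next to each other on chromosome 6 (GRCm38, 16.2 kb apart with no protein-coding gene between). None had more than these 2. Of the 11, 11 held Dpt and 10 Pdgfra, 7 held Pdgfrb and 1 Acta2, and 10 came from B20-4.1.1 tumors and 1 from an isotype tumor. They are called Abcc9 and Kcnj8 positive fibroblasts here, not mural cells. Their median depth was 10315 UMIs, against 7602 in the other 55.

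Genes were named by the size of their ratio between these 11 cells and the other 55, with no test. Gas6, a ligand of TAM receptor kinases, was found in 8 of 11 at a level of 8.06 and in 12 of the other 55 at 0.489, and Hoxd8 in 5 and 1. In the reverse direction, the small heat shock gene Hspb1 was found in 1 of 11 and 23 of 55 (0.0815 against 2.37) and the opioid precursor Penk in 2 and 20 (0.163 against 3.16). The other genes so named were found in at most 3 of the 11 cells on the higher side, or in 0 or 1 of the 11 on the lower side. The share of these cells was not tested between treatments, because only isotype tumor 2 had at least 5 fibroblasts in its group.

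Treatment was compared on UMIs summed over the fibroblasts of a tumor. The design called for tumors with at least 5 fibroblasts and at least 2 such tumors a group, which was met by 4 B20-4.1.1 tumors but by 1 isotype tumor, so the comparison used every tumor that had a fibroblast: 4 isotype and 8 B20-4.1.1 tumors, with 7578 to 191618 UMIs each. Of 619 genes with enough counts, 0 passed (0% of those tested, edgeR quasi-likelihood test, Benjamini-Hochberg adjusted p under 0.05), and 47 (7.59%) had an unadjusted p under 0.05, 22 higher (3.55%) and 25 lower (4.04%) in B20-4.1.1. Summed per pool, 0 of 2331 genes passed and 119 (5.11%) had an unadjusted p under 0.05. DESeq2 called 11 of the 619 (1.78%), with 50 (8.08%) at an unadjusted p under 0.05, and limma voom with pools as correlated groups called 0, with 37 (5.98%). Without a filter on low counts edgeR called 15 of 12136 genes (0.124%), with 636 (5.24%) at an unadjusted p under 0.05.

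The 5 genes with the smallest unadjusted p among those lower in B20-4.1.1 were all encoded by the mitochondrial genome. mt-Atp6, a subunit of ATP synthase, was at 102, 50.4, 38.7 and 36.9 in isotype tumors 2, 3, 4 and 5, and its B20-4.1.1 tumors ranged from 13.9 to 30.8 with a median of 18.2, so the groups did not overlap (log2 fold change -1.62 ± 0.33 SE, edgeR adjusted p = 0.0576). The cytochrome c oxidase subunits mt-Co3 and mt-Co2 (log2 fold changes -1.54 ± 0.32 and -1.42 ± 0.31) and the complex I subunits mt-Nd2 and mt-Nd1 (-1.37 ± 0.30 and -1.45 ± 0.34) did not overlap either, at edgeR adjusted p from 0.0576 to 0.0646. These 5 genes were picked by their p, which favors groups that lie apart. How many of the other tested genes did not overlap was not counted, so the lack of overlap adds no support. The mitochondrial share of all UMIs of fibroblasts was 1.82% to 4.60% in the isotype tumors and 0.849% to 1.61% in the B20-4.1.1 tumors.

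The same order held outside the fibroblasts. In the other kept cells of these 12 tumors the mitochondrial share was 3.63% to 6.12% in isotype and 2.45% to 3.49% in B20-4.1.1. Calls of these genes depended on the libraries. Without isotype pool 2 edgeR called 20 of 854 genes, without isotype tumor 4 12 of 535 and without isotype tumor 5 5 of 916. Of these calls 9, 7 and 3 were mitochondrial. How many mitochondrial genes each of these fits tested was not counted. It called 0 of 1212 genes without isotype pool 1. Without isotype tumor 2 or 3, both of that pool, it called 0 of 934 and 0 of 944. The size of the change depended on the libraries too. Without isotype pool 1 the log2 fold change of mt-Atp6 was -0.77, that of mt-Co3 -0.62, that of mt-Co2 -0.81, that of mt-Nd2 -0.93 and that of mt-Nd1 -0.74, at edgeR adjusted p from 0.748 to 0.817. Without isotype tumor 2 alone the 5 values lay between -1.02 and -1.17.

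**Figure D5:**
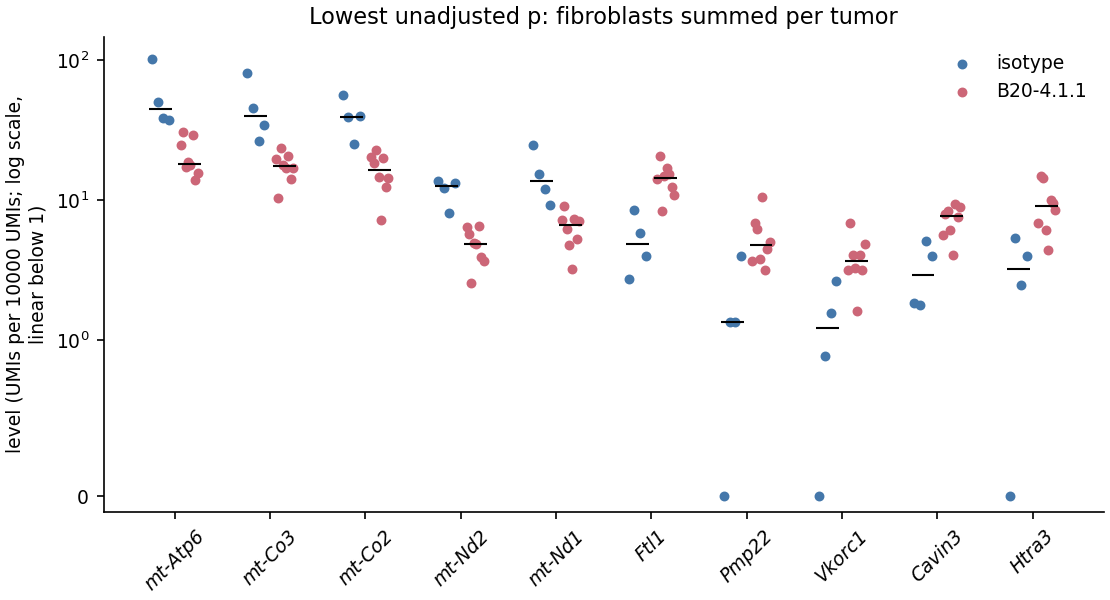
Levels (UMIs per 10000 UMIs, y axis, log scale that is linear below 1) of the 5 genes per direction with the smallest unadjusted p, in fibroblasts summed per tumor. Points are tumors (4 isotype in blue, 8 B20-4.1.1 in red) and lines are medians; the mitochondrial genes do not overlap between groups, and Ftl1, Pmp22, Vkorc1, Cavin3 and Htra3 do.

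The 5 genes with the smallest unadjusted p in the other direction overlapped between groups, and none passed. Ftl1 (ferritin light chain, iron storage) was at 2.75, 8.55, 5.81 and 3.96 in isotype tumors 2 to 5 and from 8.42 to 20.5 in B20-4.1.1 tumors with a median of 14.5 (log2 fold change 1.21 ± 0.33 SE, edgeR adjusted p = 0.150). The membrane protein gene Pmp22 had a log2 fold change of 1.79 ± 0.56, the vitamin K cycle enzyme Vkorc1 1.48 ± 0.48, the caveolar Cavin3 1.06 ± 0.35 and the secreted protease Htra3 1.48 ± 0.51, at edgeR adjusted p from 0.254 to 0.379.

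No matrix gene was called in this comparison. The rule genes, which chose the cells, had log2 fold changes from 0.17 to 0.43, given as a description. Of 16 other collagens, 9 were tested and 0 called, with a median log2 fold change of 0.08 beside 0.05 over all 619 genes. Of 20 matrix glycoproteins, 13 were tested and 0 called (median 0.21). Of 19 collagen-processing genes, 6 were tested (median 0.12), and of 16 proteases and inhibitors, 8 (median 0.02), with 0 called in each. Of the 10 proteoglycans, 6 were tested and 0 called (median 0.29). Lum was at 0.918, 0.450, 13.6 and 11.9 in isotype tumors 2 to 5 and from 6.42 to 33.8 in B20-4.1.1 tumors (log2 fold change 1.14, edgeR adjusted p = 0.755), and it passed in 1 other setting, higher in B20-4.1.1 without isotype pool 2. Cilp, a matrix gene of the split above, passed in 1, higher in B20-4.1.1 without the filter on low counts. Igfbp7, which defined that split, passed in 1 other setting, higher in B20-4.1.1, and the metalloproteinase Mmp12 in 1, lower.

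Of 12 immediate-early and heat shock genes, which dissociation of tissue is known to induce, 7 were tested and 0 called. All 7 had log2 fold changes below 0, with a median of -1.07, beside 280 of all 619 genes tested that were below 0. Egr1 at -1.89 had an edgeR adjusted p of 0.404. The cause was not tested. Of 15 inflammatory-fibroblast-associated genes, 10 were tested and 0 called (median 0.50). The hyaluronan synthase Has1 was at 0, 10.8, 8.27 and 1.32 in isotype tumors 2 to 5 and from 0 to 5.10 in B20-4.1.1 tumors (log2 fold change -1.80, edgeR adjusted p = 0.529). Of 16 angiogenic factors, 3 were tested and 0 called (median 0.47). In the myofibroblast, lineage, and PDGF and TGF-beta lists 4, 7 and 5 genes were tested (medians 0.17, 0.31 and 0.22), and in the hypoxia and osteopontin lists Ldha (-0.27) and Itgb1 (0.81) alone, with 0 called. Spp1 was not among the genes tested here. It passed in 3 other settings, each lower in B20-4.1.1, and its level was highest in isotype tumor 2, as given above. No mural, cell cycle or antigen presentation gene had enough counts to be tested. The epithelial Csn3, at 82.6 in isotype tumor 2 and 0 to 7.19 in all other tumors, had a log2 fold change of -3.05 (edgeR adjusted p = 0.250), and the part of such RNA in the other values was not tested.

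Wnt2, a secreted Wnt ligand among the 25 genes above, was below the count limit of the test. It had 0 UMIs in the 16 isotype fibroblasts and 42 UMIs in 24 of 50 B20-4.1.1 fibroblasts, with levels between 0.365 and 2.56 in the 8 B20-4.1.1 tumors. It reached the detection limit of that list through B20-4.1.1 fibroblasts alone, so its group difference is a description. A count of 0 over the isotype fibroblasts allows a level of up to 0.351. Because of how it was chosen, no p-value is given for Wnt2.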

How the data were processed

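Sorted viable cells of 15 tumors in 5 pools were profiled with 3' droplet sequencing and multiplexing oligonucleotides. The authors aligned and counted reads with Cell Ranger (6.1.2 per the file headers; build mm10 per the labels), assigned droplets to tumors and deposited raw UMI counts per tumor, with 31053 genes and no normalization. The study's own filter on cells started at 2500 UMIs and was an alternative here. Gates for comparison cells used exclusive marker counts (T cells: at least 2 UMIs of Cd3d, Cd3e and Cd3g). The members and gene lists were chosen with earlier results of these data known. Doublets were treated only by the exclusion genes and the tumor assignment, and no caller was run. Levels are descriptions. Genes were named by list (up to 8 by detection), by ratio to other cells (25), and by unadjusted p (5 per direction) where fewer than 5 passed. Counts summed per tumor were tested with edgeR 4.0.16 (TMM, filterByExpr, quasi-likelihood), with DESeq2 1.42.0 and limma 3.58.1 as alternatives. Each was also run on counts simulated with a fixed dispersion and no effect of pool. Such counts are simpler than these data and do not show how the methods perform on them. Shares used exact permutation in Python 3.11.15 with scipy 1.17.1. Thinning drew 1000 UMIs per cell, from at most 1000 cells per gate. Positions are from GENCODE M21 on GRCm38. Replicates are tumors, and p-values measure the spread between them. Intervals and floors cover counting error only.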

Additional observations from a re-analysis of the deposited data

Results flagged for a closer look

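The fibroblast share of B20-4.1.1 tumor 1, 1.67% of its kept cells, lay apart from the other 8 tumors of its group: its gap to the next tumor (0.802%) was 0.519 of the group's range, above Dixon's limit for 9 values. It was the only such value among the 30 sets of tumor values examined (this share, the 4 rule genes and the 10 genes named in the treatment comparison, in each group), where chance gives about 1 in 20. T cells made up 6.97% of that tumor's kept cells, and its fibroblasts had a median of 8278.5 UMIs.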

How the results depend on the processing

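The difference in fibroblast share kept its direction under every alternative run. It was 0.430 points with at least 2500 UMIs per cell (exact permutation p = 0.0454), 0.393 with at least 20 rule-gene UMIs (p = 0.0494, exact permutation) and 0.631 among cells without Ptprc. With at least 5 rule-gene UMIs, 0.5% of UMIs, no keratin or Epcam, or at most 10% mitochondrial UMIs it was 0.355, 0.360, 0.220 and 0.390 (exact permutation p = 0.0999, 0.0939, 0.0813 and 0.0843). Leaving out each pool gave 0.321 (without B20-4.1.1 pool 1, exact permutation p = 0.0130) to 0.404, with exact permutation p = 0.25 and 0.245 without isotype pools 1 and 2 and 0.0736 and 0.154 without B20-4.1.1 pools 2 and 3. Genes called by edgeR numbered 0 of 619. They numbered 7 of 623 with at least 5 rule-gene UMIs, 6 of 619 with rule genes at 0.5% of UMIs and 4 of 289 without keratin and Epcam. They numbered 6 of 438 without the Abcc9 and Kcnj8 positive cells and 15 of 12136 without a filter. DESeq2 called 11 of 619 and left 134 adjusted p undefined. Leaving out a pool or isotype tumor gave 0 to 20 calls, with 368 to 1212 genes tested. The causes were not tested. The 10 named genes kept their direction wherever they were tested. The Abcc9 and Kcnj8 share of fibroblasts (16.7%) was 8.57% without keratin and Epcam and 0% for 3 mural genes. The share with Bgn and Igfbp7 (50%) was 21.2% thinned and 60% with at least 2500 UMIs, and leaving out each pool gave 35.3% (without B20-4.1.1 pool 3) to 57.1%. Some settings were added after the data were seen. They were the share without B20-4.1.1 tumor 1 (0.227 points) and the Bgn and Igfbp7 settings. The fit without B20-4.1.1 tumor 1 (0 of 470 called) and that with at least 2 fibroblasts per tumor (0 of 778) were also added then. Fits needing at least 5 or 10 fibroblasts per tumor could not be run. No paired analysis was possible because pool numbers follow accession order and each pool holds a single treatment. The 16 isotype fibroblasts held 85410 UMIs in all, against 467050 in B20-4.1.1, which limits the precision of isotype levels.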
